A study of Mus musculus with 50 samples.

Results

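Motor neurons of the mouse spinal cord complete their specification around embryonic day E10.5 and by E13.5 are extending axons into the limbs and trunk. RNA of these neurons was compared between 3 libraries of E10.5 and 2 libraries of E13.5, which are 5 of the 28 RNA libraries and 5 of the 50 samples of a series that followed motor neurons from the embryo to 2 years and in culture. The libraries were chosen by the age on their labels. At E10.5, brachial, thoracic and lumbar cords of HB9-GFP embryos on a C57BL/6 background, several per replicate, were dissociated, and whole GFP-positive cells were sorted for whole cell RNA. HB9-GFP is a transgene in which the promoter of Mnx1, the gene of the motor neuron factor HB9, drives GFP. At E13.5, brachial and lumbar cords of several embryos, labelled as Chat-Cre;SUN1-GFP-3xMYC and C57BL/6, were homogenised, and nuclei with GFP in their envelope were captured with an antibody for nuclear RNA. In that line, Cre made in cholinergic cells switches on the tagged SUN1 nuclear membrane protein, whose tag the study's methods name as sfGFP and Myc, with other copy numbers than the label. None of the embryos was treated. Age, compartment (cell or nucleus), transgene and cord segment all change together between the groups, so their parts in any difference cannot be told apart. The study's methods state that the E13.5 captures carried blood vessel material.

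Spinal motor neurons arise from progenitors that express Olig2. Proneural factors drive their exit from the cell cycle, and the LIM homeodomain factors Isl1 and Lhx3 together with Mnx1 then fix motor neuron fate. Hox genes, Foxp1 and ETS factors sort the newborn cells into columns and pools, while the genes of excitability and synaptic transmission are taken up as axons grow toward muscle. A nucleus lacks the mitochondrial transcripts and much of the spliced messenger RNA of the cytoplasm, and it is rich in unspliced RNA, to which long genes with long introns contribute most.

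Library totals were 7129977, 7948446 and 7640704 counts at E10.5 and 5217950 and 12731260 at E13.5. In all, 15030 genes were tested with edgeR's quasi-likelihood test, and a gene was called where p was under 0.001 and the change at least 2-fold. Of the tested genes 24.6% were called higher at E13.5 and 19.4% lower, and the median log2 fold change (E13.5 minus E10.5) over all of them was 0.13. The background by the coarser measure, libraries of the ages that did not overlap at all, was 42% higher and 31.7% lower. In either direction 44.1% were called, the share to set beside the count of any list. In 28 lists, 747 of 807 genes were tested and 463 were called. Library values below are expected counts divided by size factors (normalised counts), and log2 fold changes are given ± SE. Members of the motor neuron identity list were present at both ages. Replicates of both ages differed in the levels of cell type lists. At E13.5, 10 of 10 well-expressed identity genes were lower in replicate 2 (median ratio to replicate 1 of 0.52), whereas 21 of 21 endothelial genes were higher (1.89) and 43 of 43 cell cycle genes were higher (1.70). At E10.5, the summed identity counts of replicate 2 were 0.48 of those of replicate 3, and the summed cell cycle counts were 1.79 times as high. Less RNA per cell and fewer cells of a type cannot be told apart in such bulk libraries, and counts that 1 library moved by more than 1.5 times are also given without it.

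**Figure D1:**
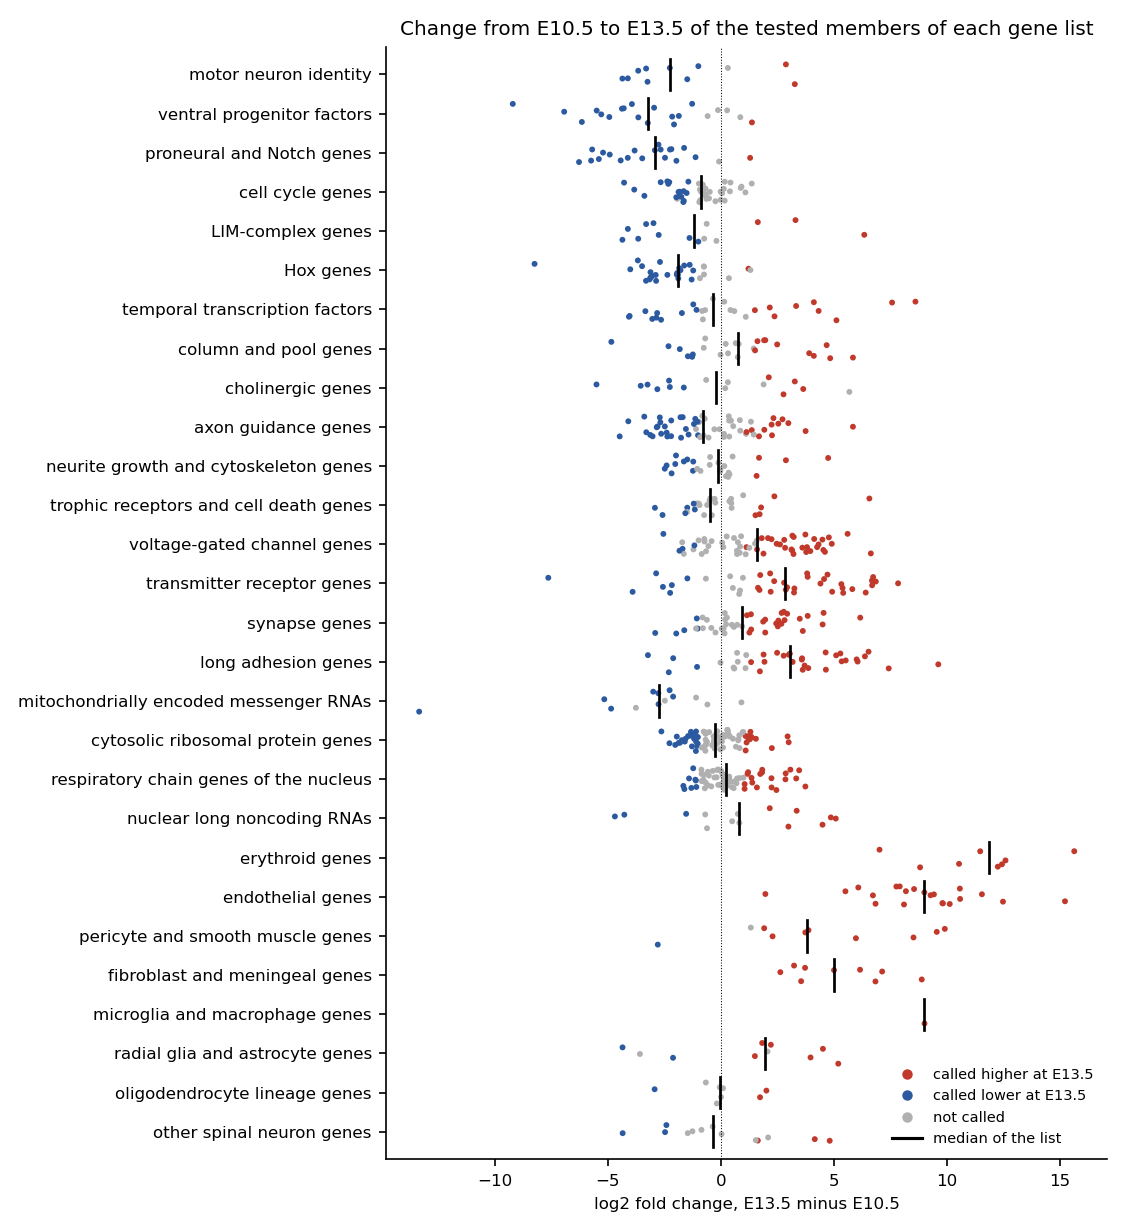
Log2 fold change (E13.5 minus E10.5, x axis) of each tested member of the 28 gene lists (rows), with red points called higher, blue points called lower, grey points not called, and a black bar at the median of the list. Progenitor factors lie mostly left of 0 (median -3.24), receptors and long adhesion genes mostly right of it (2.83 and 3.05), and the endothelial list lies wholly to the right (8.996).

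The selector genes that define newborn motor neurons were mostly lower at E13.5. Mnx1 (ENSMUSG00000001566.9, chromosome 5, 29473034 to 29478470, mm10, minus strand) had 838, 874 and 1426 normalised counts in the E10.5 libraries and 66.3 and 63.1 in the E13.5 libraries. The ages did not overlap, and the log2 fold change was -4.12 ± 0.33 (adjusted p = 7.77e-09, edgeR's quasi-likelihood test). The E10.5 cells were sorted for GFP driven by the promoter of Mnx1 itself, and the E13.5 nuclei were captured through Cre of cholinergic cells. The part of this selection in the values of Mnx1 and the other identity genes cannot be told apart from that of age. Lhx4, a LIM factor of the same early program, went from 890, 799 and 1196 to 83.8 and 79.7 (-3.66 ± 0.22), and Isl2, a close relative of Isl1, from 521, 421 and 856 to 79.2 and 52.5 (-3.31 ± 0.34). Both fell without overlap between the ages. Isl1, the partner of Lhx3, had 841, 642 and 994 normalised counts at E10.5 and 584 and 306 at E13.5. Its log2 fold change of -1.002 ± 0.23 lay at the 2-fold limit and was no longer called without E13.5 replicate 2 (-0.60), without E10.5 replicate 3 (-0.67), without E10.5 replicate 1 (-0.98), or with median-of-ratios factors (-0.89). Of the 11 identity genes, 8 were called lower and 2 higher, with a median of -2.26. Without E13.5 replicate 2, in which these genes were low, 5 rather than 8 were called lower, and the same number was found in a fit of only the 5 libraries.

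Genes of cholinergic transmission did not move as 1 group. Slc5a7, the choline transporter that limits acetylcholine synthesis, rose from 51.0, 14.9 and 42.1 normalised counts to 529 and 215 (3.26 ± 0.35). Chat, which makes acetylcholine, had 112, 84.4 and 184 at E10.5 and 225 and 115 at E13.5. The ages overlapped and Chat was not called (0.30 ± 0.27). Slc18a3, the vesicular acetylcholine transporter encoded inside a Chat intron, fell from 578, 282 and 968 to 194 and 83.6 (-2.26 ± 0.40), a call that was lost without E13.5 replicate 2 (-1.75), and Slc10a4, a vesicle transporter of cholinergic neurons, fell by 3.25 ± 0.38 on the log2 scale. Among 16 tested cholinergic genes 4 were called higher and 7 lower. The neuronal nicotinic receptor subunits Chrna4 (1473, 1004 and 1733 to 156 and 104) and Chrnb2 (485, 254 and 793 to 86.6 and 70.5) were both lower without overlap. Ache, the esterase that ends transmission, rose from 6.38, 9.93 and 18.6 to 64.5 and 46.0 (2.11 ± 0.31), and the muscarinic receptor Chrm2 rose (2.76 ± 0.53) but was not called without E13.5 replicate 1 (1.89). In a fit of only the 5 libraries 2 cholinergic genes were called higher and 4 lower.

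Most progenitor transcription factors were lower at E13.5, several of them near 0. Sox3, which holds neural progenitors undifferentiated, went from 589, 684 and 518 normalised counts to 6.45 and 4.38, a log2 fold change of -6.94 ± 0.37 (adjusted p = 6.41e-10, edgeR's quasi-likelihood test). Nkx6-1, a homeodomain factor of the ventral domains, went from 893, 1010 and 832 to 32.2 and 31.5 (-4.94 ± 0.22), and Pax6, which sets domain borders with it, from 487, 655 and 301 to 29.5 and 23.6 (-4.30 ± 0.38). In each of these genes every E13.5 library was far under every E10.5 library. Hes5, the effector of Notch signalling, fell by 6.16 ± 0.35, Olig1 by 5.50 ± 0.44 and Sox1 by 4.38 ± 0.54. Of 21 tested progenitor factors 16 were called lower and 1 higher, and 15 of the 16 stayed at or under 50% of their E10.5 mean at every later age. The riser was Vim, an intermediate filament gene that also marks vessels and glia, with 4270, 3071 and 4912 at E10.5 and 8959 and 13764 at E13.5 (1.37 ± 0.24), named after its values were seen and not called without both replicates 2 or in a fit of only the 5 libraries. Hes1, a Notch effector shared with vessels, was not called, at 263, 170 and 139 against 147 and 225.

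Genes of the step from progenitor to neuron showed the same pattern. Neurog2 (ENSMUSG00000027967.8, chromosome 3, 127633135 to 127635631), the proneural factor of motor neuron progenitors, had 752, 1039 and 698 normalised counts at E10.5 and 9.21 and 12.7 at E13.5 (-6.28 ± 0.36). Dll3 and Dll1, ligands of the Notch pathway in newborn neurons, went from 967, 821 and 1099 to 18.4 and 19.7, and from 1248, 1254 and 1039 to 73.7 and 71.8. The ages were far apart in both. Nhlh1 and Nhlh2, helix-loop-helix factors of freshly postmitotic neurons, fell by 5.70 ± 0.30 and 3.82 ± 0.35, Insm1, a zinc finger factor of the same stage, by 4.92 ± 0.39 and Neurod4 by 5.40 ± 0.37. In all, 19 of 21 tested genes of the list were called lower (median -2.93), Cbfa2t3, a corepressor gene named after its values were seen, was called higher, and 19 of the 19 that fell stayed at or under 50% of the E10.5 mean later on. The call of Cbfa2t3 was lost without E13.5 replicate 2, without both replicates 2 and in a fit of only the 5 libraries.

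Of 45 tested cell cycle genes 17 were called lower and none higher (median -0.88). That share was above the 19.4% of all tested genes called lower but under the 44.1% called in either direction. Ccnd2, a D-type cyclin, went from 6304, 10107 and 4225 normalised counts to 339 and 416 (-4.29 ± 0.31), E2f1, the S phase activator, from 353, 357 and 335 to 16.6 and 33.3 (-3.84 ± 0.37), and Cdt1, which licenses replication origins, from 415, 538 and 289 to 33.2 and 49.9 (-3.39 ± 0.43). None of the 3 overlapped between ages. The mitotic genes Cdc20, Aurka and Plk1, named after their values were seen, were also called lower, with log2 fold changes of -2.29 ± 0.21, -1.98 ± 0.37 and -1.83 ± 0.29. Mki67 and Top2a, markers of dividing cells, were not called. Mki67 had 3808, 4623 and 1432 at E10.5 and 2455 and 4857 at E13.5, and Top2a 2675, 3253 and 1855 against 1311 and 2556. Several S phase genes were not called either, among them Mcm3 (-0.49 ± 0.28) and Tyms (-0.69 ± 0.25), named after their values were seen. A fit of only the 5 libraries called 10 lower, and 2 were called higher without E10.5 replicate 2, which was rich in these genes, and 1 without E13.5 replicate 1. At E13.5, 43 of 43 cell cycle genes were higher in replicate 2, in the same direction as the endothelial genes. Whether these transcripts came from vessel cells was not tested.

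**Figure D2:**
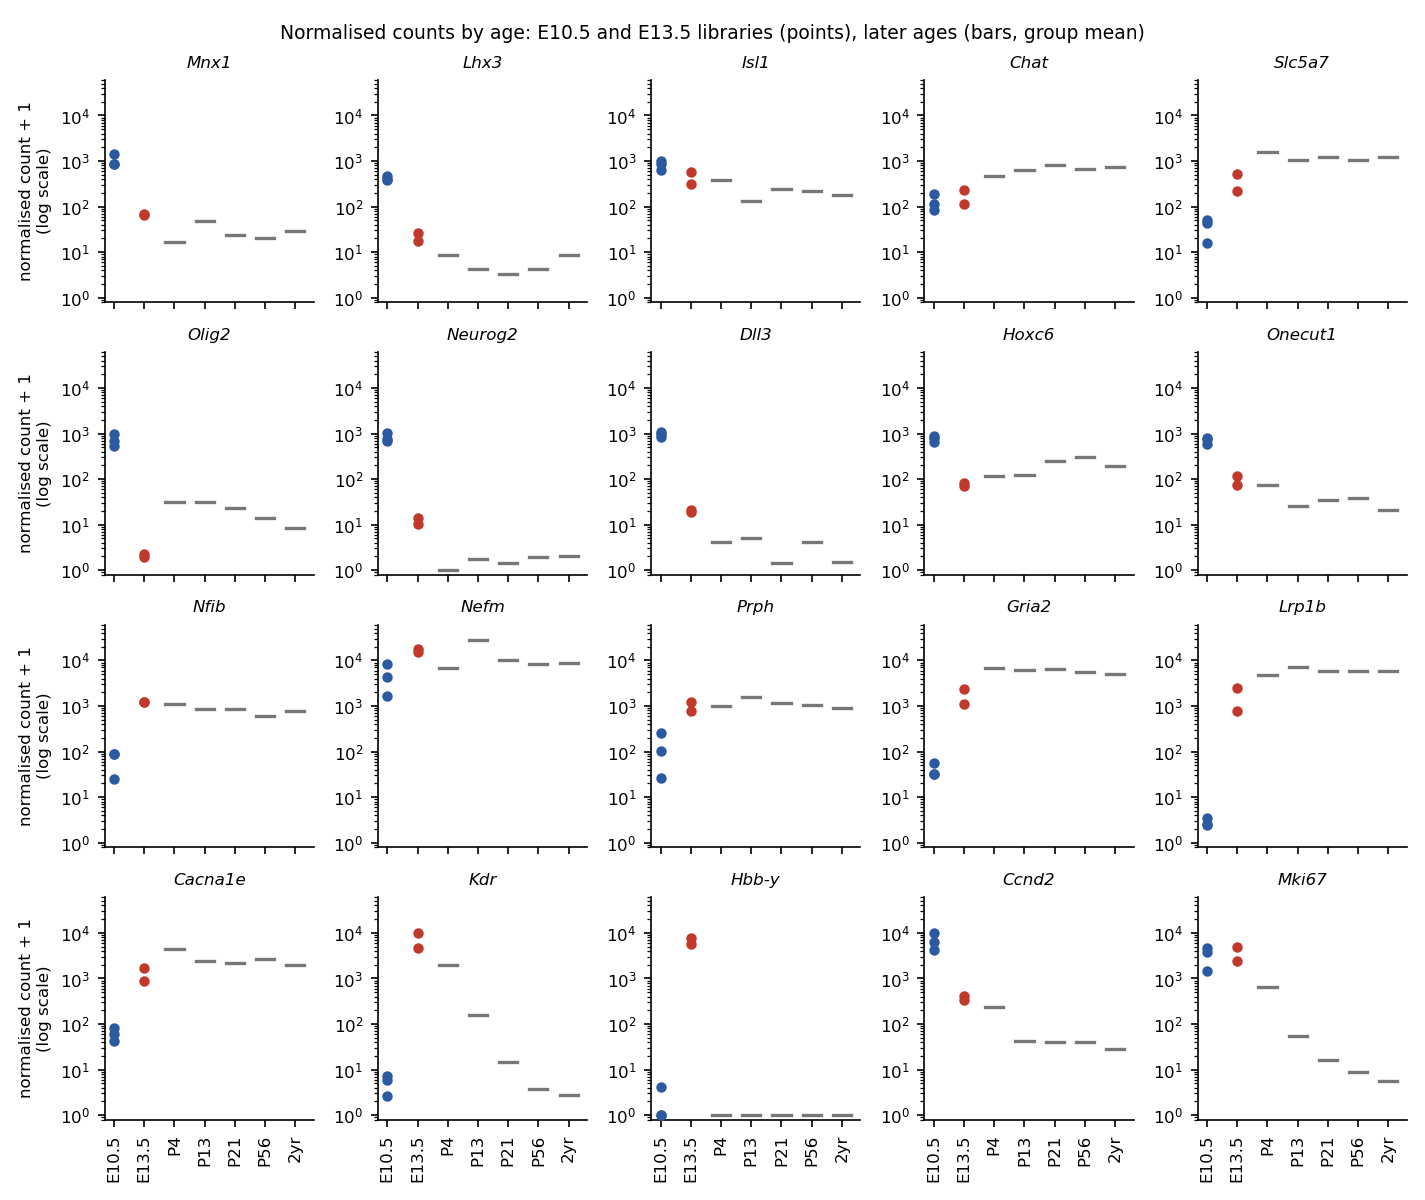
Normalised counts plus 1 (log y axis) of 20 genes by age (x axis), with blue points for the 3 E10.5 libraries, red points for the 2 E13.5 libraries and grey bars for the group means of later ages. Mnx1, Neurog2 and Dll3 stay low after E13.5, Gria2 and Lrp1b stay high, and Kdr and Hbb-y are high at E13.5 and near 0 by P21, with means of 13.6 and 0.

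Hox genes, which give motor neurons their position along the cord, were mostly lower. Hoxc6, which marks brachial motor neurons, went from 791, 662 and 879 normalised counts to 68.2 and 79.3 (-3.49 ± 0.28), and Hoxc9, which marks thoracic ones, from 378, 284 and 527 to 66.3 and 64.8 (-2.70 ± 0.44). Hoxd10, of lumbar levels, had 57.4, 47.5 and 88.2 at E10.5 and 189 and 153 at E13.5, higher without overlap but not called (1.302 ± 0.37). Hoxb1, expressed at hindbrain levels, fell from 109, 161 and 92.3 to 0.92 and 0. Of 30 tested Hox genes 23 were called lower and 1 higher (median -1.92). Thoracic cord entered the E10.5 libraries and not those of E13.5, and its part in these values cannot be told apart from that of age. Hoxb7, the gene called higher and named after its values were seen, was not called without E13.5 replicate 2, and 2 Hox genes were called higher without E10.5 replicate 3.

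Among column and pool genes the changes went both ways, with 10 of 25 called higher and 6 lower (median 0.74). Foxp1, needed for limb-level columns, had 1007, 480 and 1374 normalised counts at E10.5 and 992 and 1032 at E13.5 and was not called (-0.02 ± 0.29), while its relative Foxp4 went from 2001, 1891 and 1916 to 64.5 and 78.4 (-4.85 ± 0.25). Pou3f1, of the phrenic pool, had 106, 86.5 and 161 against 23.9 and 26.3 (-2.32 ± 0.51), and its call was lost without E10.5 replicate 3 (-1.86), without either E13.5 library (-2.29 and -2.39) and with the replicate block (-2.22). The type II cadherins Cdh7 (13.55, 12.8 and 6.48 to 264 and 98.1) and Cdh8 (5.58, 3.55 and 8.90 to 168 and 61.3), adhesion molecules of pool sorting, rose without overlap. Plxnd1, a semaphorin receptor that endothelial cells also express, rose from 45.4, 43.3 and 43.7 to 1749 and 3692 (5.84 ± 0.31). It was 2.11 times as high in E13.5 replicate 2 as in replicate 1 and stood at 0.0110 of its E13.5 mean at P21, values close to those of the endothelial list. A fit of only the 5 libraries called 6 of these genes higher and 3 lower. Of 14 tested LIM-complex genes 8 were called lower, Lhx1 among them (360, 106 and 561 to 60.8 and 49.0), and 3 higher. Lmo2, a LIM-only gene of blood and vessels, was 1 of the 3 and rose from 3.98, 2.84 and 17.0 to 478 and 889.

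Transcription factors with timed roles across the nervous system changed in both directions. Nuclear factor I genes, regulators of late neuronal and glial genes, all rose. Nfib went from 86.9, 23.4 and 88.2 normalised counts to 1228 and 1212 (4.11 ± 0.31, adjusted p = 4.58e-09, edgeR's quasi-likelihood test), and Nfia from 66.9, 28.4 and 121 to 889 and 658 (3.32 ± 0.33). Nfix had no count in the E10.5 libraries and 66.3 and 33.3 at E13.5, at least 21.5-fold higher against a floor of 3 counts per library. Nfic rose less, from 78.9, 32.6 and 128 to 220 and 261 (1.499 ± 0.32), and was not called without E13.5 replicate 2 (1.37). All of these stood without overlap between the ages, and at P21 the means were 0.73 of the E13.5 mean for Nfia, 0.69 for Nfib and 1.504 for Nfix. Nr3c1, the glucocorticoid receptor, rose from 8.77, 12.8 and 4.05 to 167 and 208 (4.32 ± 0.25). Onecut1 and Onecut3, homeodomain factors of early-born neurons, fell from 798, 600 and 743 to 117 and 72.3, and from 134, 102.8 and 222 to 15.7 and 28.9. Ebf2, of newly postmitotic neurons, fell by 1.73 ± 0.36 and was not called without E13.5 replicate 2 (-1.61). Mef2c, active in neurons, muscle and vessels, rose by 5.11 ± 0.33, was 1.58 times as high in E13.5 replicate 2 as in replicate 1 and fell back to 0.12 of its E13.5 mean by P21. In this list of 27 genes, 9 were called higher and 10 lower.

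Axon guidance genes fell more often than they rose. Of 58 tested, 25 were called lower and 12 higher (median -0.80), and 5 rather than 12 were called higher in a fit of only the 5 libraries. Cntn2, the adhesion molecule TAG-1 of early axons, went from 7388, 4906 and 10738 normalised counts to 428 and 312 (-4.48 ± 0.32), and Ntn1, the midline attractant netrin-1, from 1274, 979 and 1202 to 75.5 and 69.2 (-4.10 ± 0.20). Both stood far apart between ages. Cxcr4, a chemokine receptor that steers ventral motor axons, went from 508, 651 and 648 to 52.5 and 128 (-2.81 ± 0.35), and Epha4, which guides limb axons dorsally, from 1175, 1144 and 839 to 601 and 388 (-1.20 ± 0.19), a call lost without E13.5 replicate 2 (-0.91). The receptors of midline cues overlapped between ages and were not called, with 1363, 744 and 1522 against 1370 and 1111 for Robo1, 928, 1218 and 752 against 1142 and 552 for Robo2, and 1472, 639 and 1433 against 940 and 550.5 for Dcc. Alcam, an adhesion molecule of bundled axons, rose from 35.1, 12.8 and 37.2 to 565 and 250 (3.74 ± 0.33).

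Genes of the axonal cytoskeleton were called at a share near that of all tested genes, with 4 of 27 higher and 9 lower (median -0.11). Nefh, the heavy neurofilament chain of mature axons, rose from 7.97, 4.96 and 26.7 normalised counts to 510 and 244 (4.74 ± 0.40), and Prph, the peripheral filament protein peripherin, from 99.6, 24.8 and 256 to 1227 and 759 (2.87 ± 0.50). Nefm, the middle chain, had 4403, 1657 and 8402 against 18184 and 15107 (1.68 ± 0.38), called with all libraries but not without E10.5 replicate 1 (1.63) or E13.5 replicate 1 (1.52). Nefl, Stmn2 and Dcx, which encode the light chain and a pair of microtubule regulators, overlapped between ages and had log2 fold changes of -0.05, -0.03 and -0.02. Ina, an embryonic filament, fell from 4442, 2249 and 7712 to 1169 and 674 (-2.49 ± 0.38). Tubb3, a neuronal tubulin, was lower by 2.02 ± 0.38 and was not called without E13.5 replicate 2 (-1.61). Leaving out E10.5 replicate 3 or E13.5 replicate 2 brought the lower calls to 5, leaving out E10.5 replicate 1 or E13.5 replicate 1 brought the higher calls to 2, and a fit of only the 5 libraries called 1 higher and 3 lower. Summed counts of this list in E10.5 replicate 2 were 0.38 of those in replicate 3.

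Trophic receptor and cell death genes were called at a share near that of all tested genes, with 5 of 27 higher and 6 lower (median -0.47). Ngfr, the neurotrophin receptor p75, went from 2422, 1083 and 4023 normalised counts to 576 and 326 (-2.59 ± 0.41), and Cntfr, the receptor of ciliary neurotrophic factor, from 584, 474 and 580 to 89.3 and 67.0 (-2.92 ± 0.25). Ntrk2, the receptor of brain-derived neurotrophic factor, rose from 51.0, 25.5 and 91.5 to 385 and 233 (2.36 ± 0.31). Ntrk3, of neurotrophin 3, was higher without overlap but under 2-fold (0.98 ± 0.27). Ret, the signalling receptor of glial cell line-derived factors, had 688, 409 and 1473 against 434 and 225. The ages overlapped, and its call (-1.49 ± 0.38) was lost without E10.5 replicate 3 (-0.68), without E13.5 replicate 2 (-1.08), with median-of-ratios factors (-1.37) and with the replicate block (-1.35). Gfra1, its co-receptor, and Met, the receptor of hepatocyte growth factor, overlapped between ages. The lower calls fell to 3 without E10.5 replicate 3, and a fit of only the 5 libraries called 3 higher and 1 lower.

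Ion channel genes rose more often than they fell. Of 58 tested voltage-gated channel genes 30 were called higher and 4 lower (median 1.59). Cacna1e (ENSMUSG00000004110.17, chromosome 1, 154390731 to 154884501), an R-type calcium channel, rose from 58.2, 42.6 and 79.3 normalised counts to 1699 and 864 (4.32 ± 0.28, adjusted p = 7.37e-10, edgeR's quasi-likelihood test). Scn9a, a sodium channel of peripheral axons, rose from 83.3, 13.48 and 100.4 to 1354 and 813 (3.95 ± 0.42), and Kcnq3, a subunit of the M-type potassium channel, from 3.98, 12.1 and 4.86 to 251 and 103.3 (4.49 ± 0.38). In each of these the lower E13.5 library was above all E10.5 libraries. Scn3a, the embryonic sodium channel, had 219, 55.5 and 239 against 1004 and 550 (2.08 ± 0.36) and was not called without E13.5 replicate 1 (1.56). Those called lower included Kcnn1, Cacna1h and Cacna1g, named after their values were seen. In place of 4, 7 were called lower without E10.5 replicate 2, 2 without E10.5 replicate 3 or E13.5 replicate 2, and a fit of only the 5 libraries called 15 higher and 0 lower.

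Of 40 tested transmitter receptor genes 27 were called higher and 7 lower. Their median log2 fold change was 2.83, or 2.68 with genes at 0 in all E10.5 libraries set to their bound. Gria2 (ENSMUSG00000033981.14, chromosome 3, 80681450 to 80802835), the AMPA receptor subunit that limits calcium entry, went from 55.8, 30.5 and 31.6 normalised counts to 2380 and 1127 (5.38 ± 0.28, adjusted p = 6.25e-11, edgeR's quasi-likelihood test). Per transcript length, its mean was 2.43 TPM at E10.5 and 54.4 TPM at E13.5. Grin2b, an NMDA receptor subunit of young neurons, rose from 9.56, 0.71 and 7.29 to 762 and 296 (6.40 ± 0.42), Grik1, a kainate receptor subunit, from 4.78, 2.13 and 5.67 to 406 and 111, and Glra2, the embryonic glycine receptor subunit, from 10.4, 2.84 and 20.2 to 175 and 52.1. None overlapped between the ages. Grm7, a metabotropic glutamate receptor, and Gabra2, a GABA receptor subunit, rose by 6.69 ± 0.60 and 6.85 ± 0.53 from at most 1.62 normalised counts. Grm2, another metabotropic receptor, went the other way, from 359, 236 and 639 to 2.76 and 1.75 (-7.64 ± 0.62), and so did Glra1, the adult glycine receptor subunit, from 264, 248 and 170 to 14.7 and 17.1 (-3.91 ± 0.22), named after its values were seen. Glra1 was back at a mean of 316 by P4 and at 753 by P21, whereas Grm2 stayed at 3.59 and 3.73. Leaving out E10.5 replicate 3 or either E13.5 library brought the lower calls from 7 to 4, and a fit of only the 5 libraries called 14 higher and 3 lower.

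Synapse genes were higher in 21 of 43 cases and lower in 5 (median 0.93). Large rises included Rims1, an organiser of the release site, from 22.3, 9.93 and 20.2 normalised counts to 571 and 302 (4.54 ± 0.28). Unc13c, of the same site, rose from 0.80, 3.55 and 4.05 to 313 and 142 (6.16 ± 0.38). Dlg2, a scaffold of the receiving side, rose from 16.7, 9.22 and 7.29 to 405 and 142 (4.50 ± 0.36). All of these rose without overlap. Other release site genes, named after their values were seen, had log2 fold changes of 2.67 (Pclo), 1.26 (Rims2), 0.93 (Unc13b), 0.17 (Unc13a) and -1.98 (Bsn). Syt1, the calcium sensor of release, rose by 1.95 ± 0.37 but not without E13.5 replicate 1 (1.31), and the membrane fusion gene Snap25 by 1.33 ± 0.32 but not without E13.5 replicate 1 (0.55), E10.5 replicate 1 (1.31) or E10.5 replicate 2 (1.04). Those called lower included Nlgn2, Bsn, Nrxn2 and Syt7, named after their values were seen. The 5 came to 3 under the replicate block and with median-of-ratios factors and to 2 without E10.5 replicate 3 or E13.5 replicate 2, and a fit of only the 5 libraries called 12 higher and 1 lower.

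Adhesion genes that span very long stretches of the genome had the highest median of the neuronal lists. Of 37 tested, 26 were called higher and 4 lower (Pcdh8, Tenm3, Tenm4 and Cdh4, named after their values were seen), with a median of 3.05, and their median span was 877 kb. Lrp1b (ENSMUSG00000049252.17, chromosome 2, 40595246 to 42653624), a giant lipoprotein receptor, had 1.59, 1.42 and 2.43 normalised counts at E10.5 and 2435 and 776 at E13.5 (9.61 ± 0.46, adjusted p = 2.58e-11, edgeR's quasi-likelihood test). Csmd3, a complement-domain membrane protein, went from 8.77, 8.51 and 4.05 to 983 and 311 (6.37 ± 0.40), the contactin Cntn4 from 0.80, 0.71 and 1.62 to 165 and 67.0 (6.53 ± 0.44), and the protocadherin Pcdh9 from 137, 74.5 and 113 to 881 and 417 (2.48 ± 0.25). All stood without overlap. Tenm2, a teneurin, overlapped and was not called (126, 83.7 and 162 against 285 and 154).

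Genes of other cells and of other compartments were set apart from these. Every one of 21 endothelial genes was called higher. Kdr, the main receptor of vascular growth factor, had 1.59, 6.38 and 4.86 normalised counts at E10.5 and 4696 and 9866 at E13.5 (10.57 ± 0.42), and the vessel cadherin Cdh5 had none at E10.5 and 3508 and 6019 at E13.5, at least 2057-fold higher. All 8 tested erythroid genes rose, with the embryonic globin Hbb-y at 3.19, 0 and 0 against 5843 and 7720. Of 10 pericyte genes 8 were called higher, such as Rgs5 (2.39, 0.71 and 0.81 to 1105 and 1140), and Notch3, named after its values were seen, was called lower, and all 9 tested fibroblast genes were higher (Col3a1, 20.7, 12.8 and 4.86 to 1858 and 1308). The summed normalised counts ran from 143 to 192 at E10.5 against 20923 and 40639 at E13.5 for endothelial genes, from 1.42 to 16.7 against 17317 and 20698 for erythroid genes, from 817 to 1073 against 2850 and 2888 for pericyte genes, and from 79.3 to 155 against 3312 and 4526 for fibroblast genes. Of the microglia list only Mrc1 was tested, absent at E10.5 and at 87.5 and 39.9 at E13.5, and 2 were called higher without E13.5 replicate 2. Of 10 radial glia and astrocyte genes 6 were higher and 2 lower, among them Fabp7 (68.5, 48.9 and 64.8 to 1245 and 788) and Fgfr3 (740, 726 and 661 to 43.3 and 32.4). Of 8 oligodendrocyte lineage genes 2 were called higher and 1 lower, a share near that of all tested genes. The summed counts of other spinal neuron markers were 1308, 478 and 1700 at E10.5 and 706 and 654 at E13.5. Gad1, of inhibitory neurons, had at most 29.1 normalised counts in any of the 5 libraries, while Slc17a6, the glutamate transporter of excitatory neurons, rose from 3.98, 0 and 8.10 to 93.9 and 60.4 (4.15 ± 0.48). In this list 3 of 13 tested genes were called in each direction, a share near that of all tested genes. Of these genes 6 were called lower without E10.5 replicate 2 and 5 higher without E10.5 replicate 3.

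Among lists that track the cell compartment, of 13 mitochondrially encoded messenger RNAs 8 were called lower and none higher, and mt-Co1 had 10761, 11606 and 11239 normalised counts against 1567 and 1441. Nuclear noncoding RNAs went up for Meg3 (1242, 993 and 731 to 36707 and 35091), Snhg11 and Malat1, and 6 of 14 were called higher and 3 lower. Gm26917, a noncoding gene that took 15.5% to 16.2% of the E10.5 counts and 0.49% to 1.03% of those at E13.5, was 1 of the 3. What RNA its reads come from was not tested, so its fall is not read as that of a nuclear RNA. Ribosomal protein genes were called at a share near that of all tested genes, with 13 of 79 higher and 23 lower (median -0.28), from Rps2 (-2.64 ± 0.18) to Rps3 (2.99 ± 0.32). Many such genes have processed copies that share reads with them, so their single values are uncertain. Without E10.5 replicate 3 the lower calls were 13, and without E13.5 replicate 2 the higher calls were 8. Of 75 nuclear genes of the respiratory chain 19 were called higher and 8 lower (median 0.21), a share under that of all tested genes, and leaving out E10.5 replicate 3 or E13.5 replicate 1 brought the lower calls to 3 or 5.

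The ratio of the E13.5 replicates, which uses no E10.5 library, differed between lists. Channel genes were lower in replicate 2 in 39 of 40 cases with a mean of at least 50 normalised counts (median ratio to replicate 1 of 0.53), receptors in 22 of 22 (0.47), synapse genes in 38 of 41 (0.53) and long adhesion genes in 33 of 35 (0.47), as were the identity genes that fell. Over all tested genes the median ratio was 1.06. Endothelial genes had a ratio of 1.89, but erythroid (1.14), pericyte (1.01) and fibroblast genes (0.68) did not share it. Radial glia and astrocyte genes (0.68, 6 of 6 lower in replicate 2) lay on the same side as the channel and receptor genes, whereas progenitor factors (1.496), cell cycle genes (1.70) and trophic genes (1.03, 12 of 22 higher) did not, so the ratio does not divide neuronal genes from those of all other cells. The level at P21, by which age vessel genes are near 0, gave a further division that was chosen after the values were seen and carries no test. Of the genes called higher, 2329 (62.9%) had a P21 mean of at least 50% of the E13.5 mean, with a median replicate ratio of 0.76, and 658 (17.8%) were under 10% of it, with a median ratio of 1.66. The other 715 lay between. By this division 29 of 30 rising channel genes, 26 of 27 receptors, 20 of 21 synapse genes and 24 of 26 long adhesion genes were kept at P21, and 0 of 21 endothelial genes, 0 of 8 erythroid genes and 0 of 8 pericyte genes. The lists did not divide wholly, since 4 of 10 rising column and pool genes and 0 of 3 LIM-complex genes were kept, as were 2 of 6 radial glia and astrocyte genes, 1 of 9 fibroblast genes and 1 of 2 oligodendrocyte genes. The P21 libraries are nuclear, as are those of E13.5, and 6 of 6 rising nuclear noncoding RNAs were kept too. A rise with age and a rise from the step to nuclei therefore cannot be told apart by this division.

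**Figure D3:**
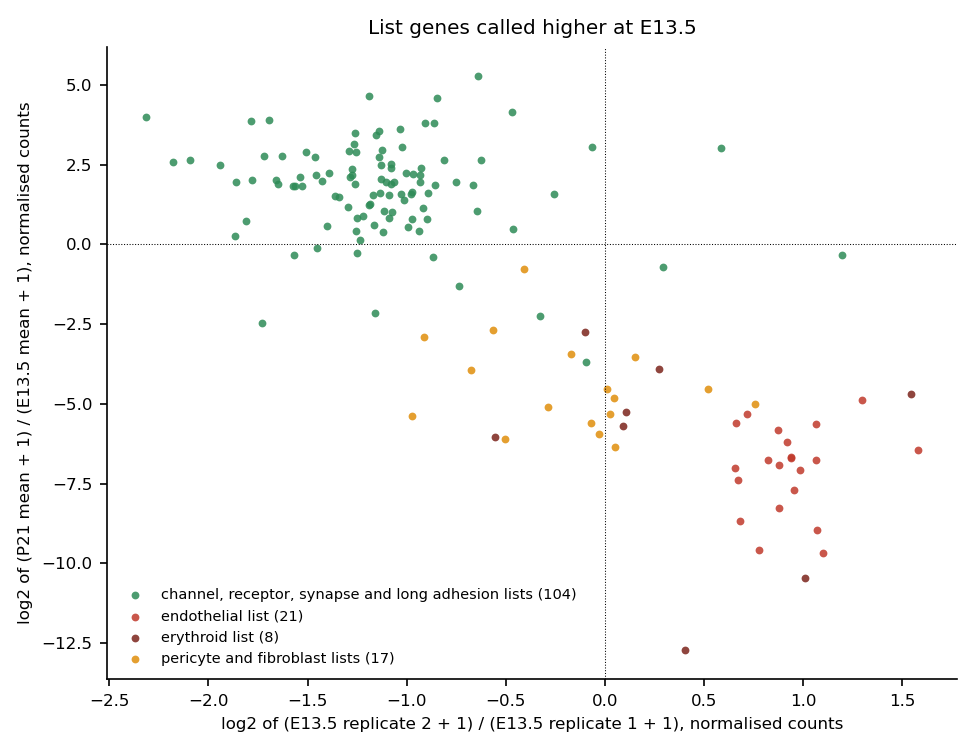
Log2 ratio of E13.5 replicate 2 to replicate 1 (x axis) against log2 ratio of the P21 mean to the E13.5 mean (y axis), in normalised counts plus 1, for list genes called higher at E13.5. Channel, receptor, synapse and long adhesion genes (green) lie mostly to the left and near or above 0, endothelial genes (red) lie to the right and far below 0, and erythroid, pericyte and fibroblast genes lie low without a common side.

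Of the 10 protein-coding genes with the largest rise outside the lists of other cells and compartments, 9 were 1.91 to 2.38 times as high in E13.5 replicate 2 as in replicate 1, among them the apelin receptor gene Aplnr (0, 0 and 0.81 to 631 and 1223), Pcdh12, an endothelial protocadherin (0 at E10.5, 333 and 794), and Igfbp7, a secreted protein of vessels (0 at E10.5, 410 and 859). All but 1 of the 9 stood at or under 0.0196 of their E13.5 mean at P21. The exception was Palmd, at 0.49. The tenth was Slc4a10 (ENSMUSG00000026904.17, chromosome 2, 62046462 to 62326730), a neuronal bicarbonate transporter, which had no count at E10.5, 524 and 169 at E13.5, at least 149.6-fold higher, and 5.86 times its E13.5 mean at P21. With the P21 level also required, the largest risers were Slc4a10, Lrp1b, Col6a3, Far2, Pde7b, Mal, Arpp21, Grin2b, Arhgap18 and Csmd3, and of these Arhgap18, Pde7b and Mal were higher in replicate 2 (ratios 1.73, 1.49 and 1.24). The largest falls included Lin28a, an RNA-binding protein of early embryonic cells (897, 1357 and 958 to 3.68 and 1.31), Sall4, a pluripotency factor (680, 933 and 580 to 8.29 and 3.94), Fignl2 (2164, 2129.7 and 2132 to 10.1 and 14.5), Sp8 (426, 470 and 363 to 8.29 and 0.44) and Scube2, which helps release Hedgehog protein (568, 608 and 429 to 3.68 and 5.25). In each, the ages were far apart. Gm10053 and H2ac19 were also among the falls, but both have near-identical copies in the genome and their counts are uncertain.

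Genes that fell differed in what came later. Of the genes called lower, 1890 (64.7%) stayed at or under 50% of the E10.5 mean at every later age, and 423 (14.5%) were back at or above it at some later age. All 17 fallen cell cycle genes stayed low, while 3 of the 4 fallen channel genes, 4 of the 7 fallen receptors and 4 of the 5 fallen synapse genes returned. All of the later libraries are of nuclei from the Chat-Cre line and are set here against whole cells of E10.5, so compartment and age cannot be told apart in these classes either.

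Calls also moved with the length of the gene. Among protein-coding genes, 15.7% of 2760 genes under 10 kb were called higher and 30.3% lower, against 32.0% and 13.6% of 1612 genes of 100 to 300 kb and 51.0% and 7.47% of 522 genes over 300 kb. The share both called higher and kept at P21 rose along the same order, from 4.93% to 45.6%. Every E13.5 library is nuclear and every E10.5 library is not, so gene length, compartment and age cannot be told apart in these shares. For the channel, receptor, synapse and long adhesion genes above, which include many of the longest genes, that is a limit on each rise, as it is for long genes that rose in other lists. The falls of short genes such as Neurog2 and Olig2, with spans of 2.497 and 3.22 kb, carry the opposite one. Median spans were 155 kb for channel genes and 154 kb for axon guidance genes, of which 12 of 58 were called higher and 25 lower.

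**Figure D4:**
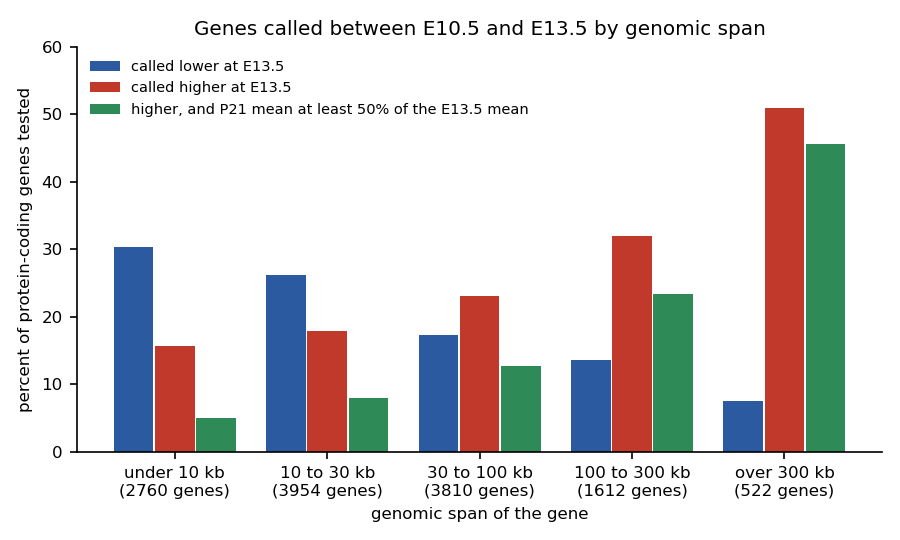
Percent of tested protein-coding genes (y axis, from 0) called lower (blue), called higher (red), and called higher with a P21 mean of at least 50% of the E13.5 mean (green), by genomic span (x axis, number of genes under each class). Lower calls go from 30.3% to 7.47% and higher calls from 15.7% to 51.0% between genes under 10 kb and over 300 kb.

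Open chromatin is read from DNA, so it does not depend on which RNA a nucleus keeps. ATAC-seq, in which a transposase inserts into open DNA, was done in 2 libraries at E10.5 (sorted cells) and 2 at E13.5 (sorted nuclei), and peaks were counted at a start site where both libraries of an age had one of their 80000 strongest peaks within 1000 bp. The study's methods give brachial, thoracic and lumbar cord for ATAC-seq at both ages, from HB9-GFP and then Chat-Cre embryos. They state a higher purity for the sorted E13.5 nuclei than for those captured for RNA. The E10.5 libraries held 80386 and 97002 peaks and those of E13.5 179718 and 156485, so the same rank stood for weaker peaks at E10.5. Promoters of the genes that fell were mostly still marked at E13.5. Of genes called lower, 96.2% had a promoter peak at E10.5 and 94.6% at E13.5, against 72.4% and 70.9% of genes called higher and 84.9% and 84.8% of those not called. All 11 identity genes had one at both ages. Progenitor factors went from 23 to 20 of 24, proneural and Notch genes from 21 to 17 of 22 and Hox genes from 36 to 28 of 39. With all peaks counted, these were 22, 21 and 33 at E13.5, so that these drops depend in part on the limit. Channel genes went from 56 to 58 of 58, receptors from 35 to 38 of 41, and synapse genes from 40 to 43 of 43, so most genes of these lists had a promoter peak at both ages. Among erythroid genes 2 of 15 had one at either age, and among endothelial genes 14 and then 13 of 21. Markers of other spinal neurons went from 21 to 7 of 26, but with all peaks counted 23 had one at E13.5, and without E13.5 replicate 2 it was 14, so that this drop rests on the limit.

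**Figure D5:**
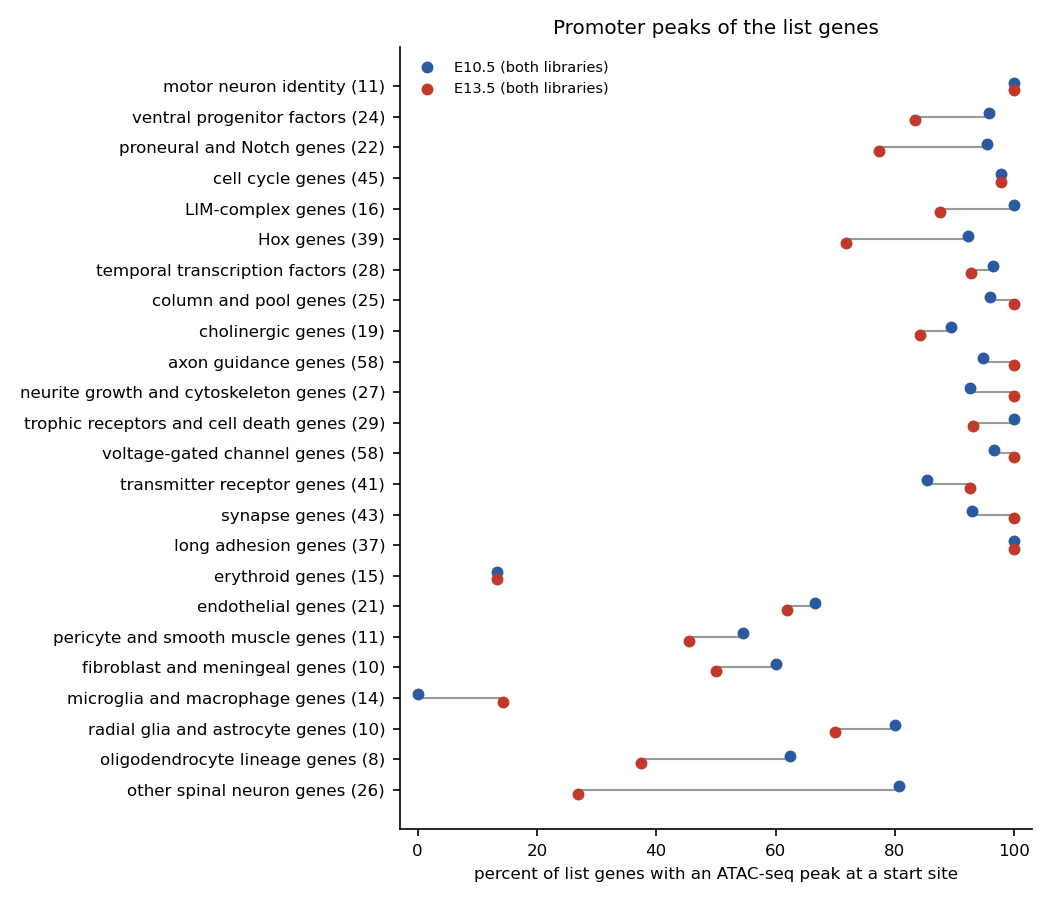
Percent of the genes of each list (rows, number of genes in brackets) with an ATAC-seq peak within 1000 bp of a start site in both E10.5 libraries (blue) and in both E13.5 libraries (red), among the 80000 strongest peaks of each library. Identity and long adhesion genes are at 100% at both ages, Hox and proneural genes are lower at E13.5, and erythroid genes are low at both.

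Only 3 called genes of the neuronal lists, singled out after their values were seen, had a promoter peak at 1 age and none among all peaks at the other. All peaks at E10.5 were 80386 and 97002, little above the 80000 used in the first library, so absence at E10.5 was the weaker check. Gria1, the main AMPA receptor subunit (11.95, 4.26 and 17.8 to 402 and 172 normalised counts), and Nlgn3, a postsynaptic adhesion molecule (62.5, 60.5 and 65.8 to 197 and 105), had a promoter peak at E13.5 with fold enrichments of 17.3 and 8.18, and of 12.6 and 7.12, over the local background. Dbx1, a homeodomain factor of interneuron progenitors, had one at E10.5 only, with fold enrichments of 3.04 and 3.43. Its RNA went from 308, 206 and 187 to 3.68 and 7.88 (-5.30 ± 0.45). DESeq2 gave the same direction (-5.34) and did not call it. Of these 3, Dbx1 alone lost both its peak and its RNA. Only its promoter is shown, because the RefSeq promoter windows used held none for Gria1 and Nlgn3. The sequence is the RefSeq promoter window (GRCm38.p6, chr7:49636786-49637085, minus strand, 5′ to 3′), with TATAAA and CCAAT in capitals as searched on both strands. It held 1 TATAAA and 2 CCAAT, which do not overlap, and 13.6% and 37.4% of 32817 RefSeq promoter windows of the same length hold these motifs at least once.
Dbx1: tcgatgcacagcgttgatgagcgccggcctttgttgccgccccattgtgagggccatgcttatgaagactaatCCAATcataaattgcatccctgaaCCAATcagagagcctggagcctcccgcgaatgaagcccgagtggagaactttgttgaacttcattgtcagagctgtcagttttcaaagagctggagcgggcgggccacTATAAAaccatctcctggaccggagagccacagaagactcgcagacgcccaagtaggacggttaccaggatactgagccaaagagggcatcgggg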

How the data were processed

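RNA-seq libraries were made by the authors with a stranded total RNA kit for low input and ribosomal depletion. Per the labels' processing notes and the study's methods, reads were trimmed with Trim Galore, aligned to mm10 with STAR 2.5.2b and quantified with RSEM 1.3.0 at default parameters, which do not use strand, so overlapping and antisense genes cannot be told apart. The deposited values used here are expected counts per gene, without normalisation, and TPM values that the authors' RSEM runs scaled by transcript length, used only for levels of single genes. The ATAC-seq peaks were called per library by the authors with MACS2 2.2.7.1, and the deposited lists give a fold enrichment (a ratio to the local background) and a −log10 p for each peak. Read numbers behind the peaks are unknown.

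Expected counts of the 18 in vivo libraries were rounded to whole numbers. Genes had to reach 5 CPM in all replicates of at least 1 age. A model with 1 coefficient per age was fitted with TMM factors and edgeR 4.0.16's quasi-likelihood test (R 4.3.3, limma 3.58.1). The Benjamini-Hochberg method over all 15030 genes gave the adjusted p. The limits (p under 0.001, at least 2-fold) follow the study's methods. Normalised counts were scaled by median-of-ratios factors over the 18 libraries. The genes of the tables (55385) were matched to GENCODE M21 (55144) for coordinates. Peaks were overlapped with start sites in Python 3.11.15 with pandas 2.3.3 and numpy 2.4.6. This fit was checked on simulated counts with known changes. A gene at 0 in all libraries of an age is given as a bound against 3 counts per library, and such floors cover counting error only.

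The comparison, the gene lists and the limits were chosen with earlier results of these data known. Named by rule were the key genes of each list, the 4 called members of a list with the largest change among those with a mean of at least 100 normalised counts, and the 10 largest rises and falls among protein-coding genes with at least 100 normalised counts in every library of the higher age, outside the lists of other cells and compartments. Not all of them are printed, and some items are not reported here. Replicates came from separate pools of embryos. The p-values rest on a spread estimated over all in vivo libraries, most of them postnatal, and not over the embryo libraries alone. A fit of only the 5 libraries kept 54.4% of the genes called higher and 57.3% of those called lower. Alternatives were other scalings and filters, DESeq2 1.42.0, a likelihood ratio test, an adjusted p under 0.05, the 5 libraries alone, a replicate block, leaving out each library and, added after seeing the data, leaving out both replicates 2. Libraries of culture were not used here.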

Additional observations from a re-analysis of the deposited data

How the results depend on the processing

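The direction of calls held throughout: of the genes called higher or lower, 0 had the opposite sign under any alternative, and 134 of 168 called named genes kept their call under all of them that gave a p, with 34 losing it under at least 1. DESeq2 gave no p for 1 of the 168, which was judged by the other alternatives. Counts called higher and lower were 3702 and 2919 and came to 2036 and 1681 in a fit of only the 5 libraries, where fewer libraries estimate the spread. Over the alternatives that left out 1 library they ran from 3464 to 4070 and from 2344 to 2948, and without both replicates 2 they were 3539 and 2731. Median-of-ratios factors moved the median log2 fold change of all genes from 0.13 to 0.24 and gave 4008 and 2623 calls. With no filter on low counts 5186 were called higher. List members called ranged from 321 to 502 around 463, and list genes with a promoter peak from 650 to 732 at E10.5 and from 607 to 729 at E13.5.

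Replicate numbers are shared by the ages, but the embryos are not. Libraries with the same number deviated from the mean of their age with correlations of 0.11 and 0.13 across genes in the 2 pairs, too few pairs to match the samples by number. With the replicate number as a block, 3613 genes were called higher, 2822 lower and 452 list members in all, and among the named genes the calls of Ret (-1.35) and Pou3f1 (-2.22) were lost.

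Of the named genes that were not called, 20 changed sign in at least 1 alternative, all with values near 0 or with ages that overlapped, and the cause was not tested. Over the 5 alternatives that left out 1 library their log2 fold changes were Aldh1a2 (from -0.56 to 0.71), Chat (from -0.26 to 0.84), Cox4i1 (from -0.20 to 0.18), Dcx (from -0.58 to 0.42), Foxp1 (from -0.34 to 0.52), Gad1 (from -0.82 to 0.11), Gap43 (from -0.92 to 0.60), Hes1 (from -0.47 to 0.18), Hrk (from -0.20 to 0.99), Lmo3 (from -1.24 to 0.48), Met (from -0.18 to 0.80), Mki67 (from -0.52 to 0.44), Nefl (from -0.71 to 1.02), Nrxn3 (from -0.045 to 1.24), Robo1 (from -0.32 to 0.31), Robo2 (from -0.93 to 0.14), Slc32a1 (from -0.48 to 1.35), Slit2 (from -0.26 to 0.78), Sox10 (from -0.56 to 0.28) and Stmn2 (from -0.48 to 0.78). With median-of-ratios factors, the values were Dcx 0.098, Foxp1 0.10, Nefl 0.084, Robo1 0.048, Sox10 0.057 and Stmn2 0.091. Without a filter, the values were Cox4i1 0.0072, Dcx 0.10, Foxp1 0.12, Nefl 0.091, Robo1 0.062, Sox10 0.086 and Stmn2 0.10. In the fit of only the 5 libraries, the values were Dcx 0.086, Foxp1 0.080, Nefl 0.070, Robo1 0.032, Sox10 0.027 and Stmn2 0.077. With DESeq2, the values were Dcx 0.099, Foxp1 0.10, Nefl 0.085, Robo1 0.048, Sox10 0.053 and Stmn2 0.092. With the replicate block, the values were Dcx 0.089, Foxp1 0.088, Mki67 -0.11, Nefl 0.33, Robo1 0.023 and Stmn2 0.19. Without both replicates 2, the values were Dcx 0.032, Lmo3 0.49, Mki67 -0.20, Robo2 0.34 and Slc32a1 -0.036.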
